A study of Mus musculus with 5 samples.

Results

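The 5 genes described here are Dnmt1, Uhrf1, Dnmt3a, Dnmt3b and Dnmt3l, which encode the DNA methyltransferase family and the factor that guides its maintenance enzyme. They were taken by name from the count files, out of 15597 genes, and a gene without a row in a plate's file had 0 reads there. Single cells of 3 mouse cell types were sequenced by tagged reverse transcription, in which a barcode marks the 5′ end of the cDNA of each well and the wells of a plate are pooled before PCR. Cells of the embryonic stem (ES) line ES R1, which the labels call stem cell-derived spheres, filled 3 plates of 96 wells, while 1 plate each was used for fibroblasts of the mouse embryo (MEF) and for Neuro2A, a line from a mouse neuroblastoma. The ES plates are numbered in the order of their records. The labels name no treatment or genetic change and give neither the strain nor the passage of the fibroblasts, and ES R1 and Neuro2A are 1 line each.

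DNA methylation at CpG sites is kept through cell division by a maintenance system and put on unmethylated DNA by a de novo system. In the maintenance system, Dnmt1 copies the mark onto the newly made strand behind the replication fork, and Uhrf1 binds the hemimethylated sites and brings Dnmt1 to them. In the de novo system, Dnmt3a and Dnmt3b are the enzymes, and Dnmt3l is a cofactor without catalytic activity that binds and stimulates them. Dnmt3b and Dnmt3l are known for high expression in early embryonic cells and Dnmt3l also in the germ line, while Dnmt3a and Dnmt1 are expressed much more widely.

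Because the libraries read the 5′ end of each cDNA, the DNA just upstream of the de novo genes' start sites is shown, with every CpG dinucleotide in capitals, to compare genes that the cell types used very differently. The 250 bases before the RefSeq start nearest to the first principal transcript, whose annotated start lies 50, 1 and 0 bases away for Dnmt3a, Dnmt3b and Dnmt3l, are given on the plus strand of GRCm38.p6: Dnmt3a at chr12:3806730-3806979, Dnmt3b at chr2:153649199-153649448 and Dnmt3l at chr10:78049592-78049841.
Dnmt3a: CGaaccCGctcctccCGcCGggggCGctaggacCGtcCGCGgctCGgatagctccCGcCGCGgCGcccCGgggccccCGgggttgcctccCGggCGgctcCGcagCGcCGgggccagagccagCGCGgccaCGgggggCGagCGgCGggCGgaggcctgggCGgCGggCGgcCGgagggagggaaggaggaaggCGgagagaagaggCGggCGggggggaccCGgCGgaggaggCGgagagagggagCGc
Dnmt3b: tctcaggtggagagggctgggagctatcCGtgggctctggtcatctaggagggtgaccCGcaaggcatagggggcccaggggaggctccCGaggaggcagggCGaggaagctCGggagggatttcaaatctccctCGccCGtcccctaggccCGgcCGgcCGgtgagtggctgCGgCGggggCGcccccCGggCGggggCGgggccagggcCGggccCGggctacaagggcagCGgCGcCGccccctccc
Dnmt3l: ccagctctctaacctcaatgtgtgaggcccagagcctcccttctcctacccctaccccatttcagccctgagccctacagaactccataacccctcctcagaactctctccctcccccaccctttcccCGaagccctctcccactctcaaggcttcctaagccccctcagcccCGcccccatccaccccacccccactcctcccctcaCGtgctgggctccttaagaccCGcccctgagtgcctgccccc
The Dnmt3a window holds 38 CpG, the Dnmt3b window 21 and the Dnmt3l window 4. Over 32851 RefSeq windows of this length the median was 6, and 98.4%, 85.2% and 44.4% of windows held no more CpG than those of Dnmt3a, Dnmt3b and Dnmt3l. The corresponding windows of Dnmt1 and Uhrf1 held 7 and 10. Windows at other RefSeq starts differed for Dnmt3a, Dnmt1 and Uhrf1. For Dnmt3a they held 40 CpG at 130 bases from the principal start and 15 at 84714 bases. For Dnmt3l they held 5 at 7555 bases and 3 at 5493 bases, close to the window shown, and Dnmt3b had no other window. For Dnmt1 they held 26 CpG at 356 bases from the principal start and 2 at 6909 bases. For Uhrf1 the other window, 992 bases from the principal start, held 30. The letters TTTCGCGC, a form of the E2F motif of replication genes, were searched on both strands in the 12 windows RefSeq gives for the 5 genes. They occurred in 1 window of Dnmt1 (chr9:20952574-20952873) and 1 of Uhrf1 (chr17:56304063-56304362), and in 0.323% of all windows. The counts are per gene and do not say which start was used.

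Depth differed widely between plates. Of 480 wells, 431 held at least 1000 reads on genes and were kept, namely 93, 66 and 94 in ES plates 1, 2 and 3, 86 in Neuro2A and 92 in MEF. The median kept well had 101130, 2520.5 and 17003 gene reads in the ES plates, with 26278 in Neuro2A and 12749 in MEF, so ES plate 2 gave the least precise values. It also stood apart in its share of reads on repeats, 82.4%. A single well held 24.5% of the gene reads of ES plate 2, beside 4.97% to 6.43% in the other plates. The 10 ES marker genes summed to between 4706 and 9154 CPM in the ES plates and to 0.32 and 2.53 in Neuro2A and MEF. The 11 fibroblast markers summed to 29384 CPM in MEF, 1514 in Neuro2A and between 1280 and 3196 in the ES plates, and 10 of them were highest in MEF. The exception was Pdgfra, at 96.9 CPM in Neuro2A and 13.1 in MEF. The 11 neuroblastoma markers summed to 2143 CPM in Neuro2A, 314 in MEF and between 315 and 473 in the ES plates, and 9 were highest in Neuro2A. The exceptions were Gata3, at 62.6 CPM in MEF and 14.8 in Neuro2A, and Stmn2, at 343 in ES plate 2 and 336 in Neuro2A. The 96 barcodes were the same in all plates, and genes particular to 1 plate also had reads in another. Genes particular to MEF appeared in ES plate 3 at a median of 10.8% of their MEF reads (199 genes), and genes particular to Neuro2A appeared in MEF at 9.45% (134 genes). Both shares come from plate sums, and whether the reads lay at the same barcodes was not tested over these genes. Such reads are called carried here, but their source was not tested. Subtracting the carried share lowered Dnmt1 in ES plate 3 from 229 to 218 CPM and Dnmt3b there from 333 to 329. Larger shifts are given beside the gene. The marker sums above include carried reads. Of the 10 neuroblastoma markers with reads in MEF, 7 had no more there than the share carried from Neuro2A. Levels are counts on genes, summed over the kept wells of a plate and divided by the plate's total on the usual CPM scale, with totals adjusted by the trimmed mean of M values (TMM). The 5 plates are the samples, and nothing in the labels says whether the ES plates came from separate cultures. Only ES cells had more than 1 plate, so p-values measure the spread between the ES plates. That spread was taken to hold for Neuro2A and MEF, whose own spread between plates was not measured. In pooled sums, fewer expressing cells and less RNA per cell cannot be told apart.

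Dnmt3l, the cofactor, was read in ES cells and in neither of the other cell types. Its level was 1091 CPM in ES plate 1, 668 in ES plate 2 and 1016 in ES plate 3 (925 ± 226, SD, n = 3), and its row was absent from the Neuro2A and MEF files. All 3 ES plates were high and the other plates at 0, with no overlap. Dnmt3l counts came in steps of 2, described further on, so a count of 0 was taken to allow up to 3 such steps, or 6 reads. That is 1.93 CPM in Neuro2A and 3.03 in MEF, and the ES mean was at least 479-fold higher than Neuro2A and at least 305-fold higher than MEF. These bounds, like the intervals below, cover counting error only, since PCR reads without molecular identifiers are not independent molecules. Among 257 genes with an ES mean of at least 500 CPM, 3 had 0 reads in both other plates (1.17%), a limit chosen after the values were seen: Dnmt3l, the ES cell transcription factor gene Zfp42 and the zinc finger gene Sall4. In edgeR's quasi-likelihood test the unadjusted p was 0.000116 against MEF and 9.67e-05 against Neuro2A, and the Benjamini-Hochberg adjusted p over all genes was 0.435 and 0.177. DESeq2 gave adjusted p of 6.54e-07 and 1.23e-07, and over 13 alternative analyses of each comparison the adjusted p ran from 6.54e-07 to 0.749 against MEF and from 1.23e-07 to 0.412 against Neuro2A.

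Dnmt3b, a de novo enzyme, was highest in ES cells, lower in Neuro2A and lowest in MEF. It stood at 801, 586 and 333 CPM in ES plates 1, 2 and 3 (573 ± 234, SD, n = 3), at 256 in Neuro2A and at 38.4 in MEF. Every ES plate lay above both other plates, although ES plate 3 was nearer to Neuro2A than to ES plate 1. The ES mean was 14.9-fold higher than MEF, a fitted log2 difference of 3.90 ± 0.99 (SE) with an edgeR adjusted p of 0.493 (unadjusted 0.00774). Against Neuro2A the ES mean was 2.24-fold higher and the fitted log2 difference was 1.16 ± 0.82 (SE), with an edgeR adjusted p of 0.538. The median log2 difference of all genes tested was 0.91 against Neuro2A, so that of Dnmt3b was near the typical gene. DESeq2 gave an adjusted p of 0.000642 against MEF and 0.420 against Neuro2A, with 0.000642 to 0.834 and 0.420 to 0.742 over the alternatives. Between the lone plates Dnmt3b was 6.67 times as high in Neuro2A as in MEF (95% counting interval 4.16 to 11.3), a ratio without replicates.

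The Dnmt3b reads of the MEF plate lay at the barcodes where the Neuro2A plate had most. There were 76 such reads in 4 MEF wells, with 48, 12, 12 and 4 reads, and the Neuro2A wells of the same barcodes had 424, 184, 88 and 12. Of 5 barcodes with at least 12 Neuro2A reads, a limit chosen after the values were seen, 4 had MEF reads, and of 15 barcodes with fewer, 0 did. ES plate 3 also had Dnmt3b reads at the barcodes of 3 of these 4 MEF wells, which held 64 of the 76 reads. The 76 reads are 9.55% of the 796 in Neuro2A, beside the 9.45% measured over genes particular to Neuro2A. Subtracting that share left 0.803 reads, or 0.41 CPM, which is below the limit that a count of 0 allows. The source of the MEF reads was not tested.

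Uhrf1, the guide of the maintenance enzyme, had its levels in the same order, highest in ES cells and lowest in MEF. Its level was 338, 122 and 266 CPM in the ES plates (242 ± 110, SD, n = 3), 30.3 in Neuro2A and 3.03 in MEF. Every ES plate lay above both other plates, and the SD of the ES plates was smaller than the distance of their mean from either. The ES mean was 79.9-fold higher than MEF, where all 6 reads came from 1 well, and 8.00-fold higher than Neuro2A. The fitted log2 difference was 6.31 ± 1.31 (SE) against MEF and 3.00 ± 1.05 (SE) against Neuro2A, with edgeR adjusted p of 0.472 and 0.368 (unadjusted 0.00303 and 0.0296). DESeq2 gave adjusted p of 1.45e-05 and 0.0336, within ranges over the alternatives of 1.45e-05 to 0.834 and 0.0336 to 0.635. The single MEF well with Uhrf1 shared its barcode with the Neuro2A well that held 80 of that plate's 94 Uhrf1 reads, and no reads were left in MEF after the subtraction. Without that 1 well, Neuro2A had 14 Uhrf1 reads, or 4.51 CPM. Most of the Neuro2A level of Uhrf1 thus came from 1 well.

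**Figure D1:**
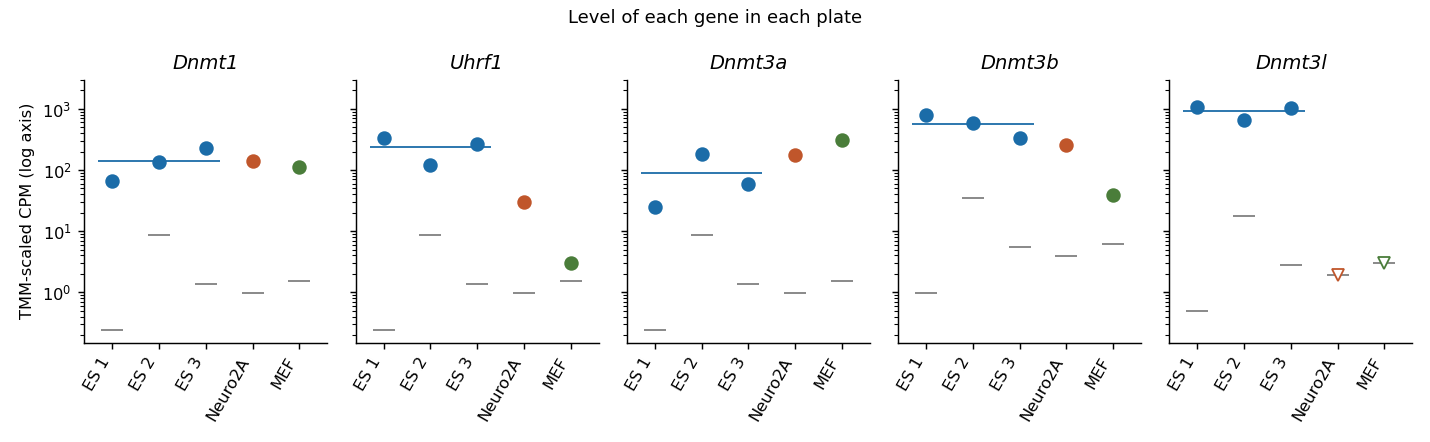
Level of each gene in each plate, in TMM-scaled CPM on a log axis, with 1 panel per gene and 1 point per plate; blue lines are means of the 3 ES plates, grey bars mark the level of 3 reads, or of 3 steps for Dnmt3b (12 reads) and Dnmt3l (6 reads), and open triangles at that level stand for 0 reads. Dnmt3l, Dnmt3b and Uhrf1 are above Neuro2A and MEF in all 3 ES plates, Dnmt3a is highest in MEF at 308 CPM, and Dnmt1 shows no separation.

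Dnmt3a, the other de novo enzyme, showed the opposite order, with MEF highest. It stood at 25.0, 180 and 58.1 CPM in ES plates 1, 2 and 3 (87.7 ± 81.6, SD, n = 3), at 173 in Neuro2A and at 308 in MEF. All ES plates lay below MEF, and ES plate 2 lay slightly above Neuro2A. The MEF level was 3.51-fold higher than the ES mean, and the fitted log2 difference of ES against MEF was -1.84 ± 1.09 (SE) with an edgeR adjusted p of 0.597. Against Neuro2A it was -1.01 ± 1.13 (SE), with an edgeR adjusted p of 0.637. Of all genes tested, 39.8% lay below MEF in every ES plate, so the position of Dnmt3a is a common one in this comparison. Neuro2A had 0.564 times the MEF level (95% counting interval 0.501 to 0.634), without replicates. The high value of ES plate 2 came largely from 1 well with 51 of its 62 reads. Without ES plate 2 the ES mean was 41.6 CPM, and MEF was 7.40-fold higher. Without the well with most reads in each plate, Dnmt3a stood at 14.1, 31.9 and 43.4 CPM in the ES plates, with 45.4 in Neuro2A and 193 in MEF. Subtracting the share taken as carried from MEF lowered ES plate 3 from 58.1 to 27.9 CPM. Of the 20 ES plate 3 wells with Dnmt3a, however, 12 lay at barcodes without Dnmt3a in MEF, with 44 of the 127 reads. In MEF itself, subtracting reads carried from Neuro2A left 282 CPM.

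Dnmt1, the maintenance enzyme, was read in all 3 cell types at levels that overlapped. It stood at 66.2, 134 and 229 CPM in the ES plates (143 ± 81.8, SD, n = 3), at 139 in Neuro2A and at 111 in MEF. Both other plates lay inside the range of the ES plates. The fitted log2 difference of ES was 0.37 ± 0.96 (SE) against MEF and 0.04 ± 0.94 (SE) against Neuro2A, with edgeR adjusted p of 0.878 and 0.992. Errors of this size leave room for a difference of several fold in either direction. Neuro2A had 1.26 times the MEF level (95% counting interval 1.07 to 1.49), without replicates. In MEF, 14 of the 20 wells with Dnmt1 reads lay at barcodes with Dnmt1 reads in Neuro2A, 6 wells with 96 reads lay elsewhere, and 89.95 CPM remained after the subtraction.

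Counted together, 0 of the 5 genes passed edgeR's adjusted test in either comparison, as did 0% of the 12271 genes tested. With 2 residual degrees of freedom the fit put the spread between plates at a biological coefficient of variation of 122%. At an unadjusted edgeR p under 0.05, Uhrf1, Dnmt3b and Dnmt3l were higher in ES cells than in MEF, where 4.21% of all genes were, and Uhrf1 and Dnmt3l were higher than in Neuro2A, where 8.38% were. DESeq2 called the same 3 against MEF, beside 4.67% of the genes it tested, and the same 2 against Neuro2A, beside 11.4%. It called 0 of the 5 lower in ES cells, where 1.02% of genes were called lower than in MEF and 1.73% lower than in Neuro2A. Every ES plate was above MEF for 3 of the 5 genes, beside 23.3% of all genes, and above Neuro2A for the same 3, beside 28.8%. In the other direction, Dnmt3a lay below MEF in every ES plate and 0 of the 5 lay below Neuro2A in every ES plate, beside 28.1%. Without ES plate 1, edgeR called Uhrf1, Dnmt3b and Dnmt3l higher than in MEF, beside 1.81% of all genes, and Dnmt3l higher than in Neuro2A, beside 8.64%. Without a filter on low counts it called Dnmt3l in both, beside 0.0577% and 0.488%. Without ES plate 2 it called 0 in both. In the lone-plate comparison, Uhrf1 and Dnmt3b were more than 4-fold higher in Neuro2A than in MEF, as were 14.6% of all genes. Neither comparison is independent of the other, since both use the same ES plates.

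The 5 genes also differed in how steady they were between ES plates. The coefficient of variation over the 3 plates was 24.4% for Dnmt3l, 40.9% for Dnmt3b, 45.5% for Uhrf1, 57.2% for Dnmt1 and 93.1% for Dnmt3a. Over 6651 tested genes with at least 20 CPM its median was 54.7%, with 10% of genes below 20.6%. Dnmt3l was thus among the steadier genes and Dnmt3a among the more variable ones, although 110% was exceeded by the top 10% of genes. The genes compared were not matched for level, on which counting error depends. In ES plate 2, 3 reads are 8.71 CPM, and 1 well held 51 of its 62 Dnmt3a reads.

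Shares of wells with a read were compared at equal depth. Thinned to 1000 gene reads per well, Dnmt3l was read in 24 of 93, 26 of 66 and 46 of 94 wells of the ES plates, and without thinning in 48, 33 and 72. It was read in 0 of 86 Neuro2A wells and 0 of 92 MEF wells even without thinning, which allows shares of up to 3.49% and 3.26% by a limit of 3 counts and up to 4.20% and 3.93% by the exact 95% interval. The plates without Dnmt3l thus also give its background, at median depths of 26278 and 12749 gene reads per well. Uhrf1 was read in 18 of 93, 7 of 66 and 18 of 94 thinned ES wells, in 2 of 86 Neuro2A wells and in 0 of 92 MEF wells. Dnmt3b was read in 14 of 93, 11 of 66 and 14 of 94 thinned ES wells, in 9 of 86 of Neuro2A and in 3 of 92 of MEF. MEF had the lowest share of both genes. Thinned to 5000 reads, with shallower wells left out, Uhrf1 was read in 32 of 90, 3 of 10 and 48 of 85 ES wells. Dnmt1 was read in 4 of 93, 6 of 66 and 19 of 94 thinned ES wells, in 10 of 86 of Neuro2A and in 6 of 92 of MEF. The 95% exact intervals of ES plates 1 and 3 for Dnmt1, 1.18% to 10.6% and 12.6% to 29.8%, did not overlap. Carried-over reads were also subtracted and the wells thinned in a separate random draw. The intervals then overlapped, at 0.670% to 9.14% (3 of 93 wells) and 5.22% to 18.7% (10 of 94). Another draw without subtraction gave 0.0272% to 5.85% (1 of 93) and 10.1% to 26.2% (16 of 94), without overlap. Nothing was subtracted from ES plate 1, and the carried share was 23.7 of the 501 Dnmt1 reads of ES plate 3. Separate draws thus do not show what the subtraction alone changed. Dnmt3a was read in 1 of 93, 2 of 66 and 6 of 94 thinned ES wells, with 4 of 86 in Neuro2A and 6 of 92 in MEF.

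**Figure D2:**
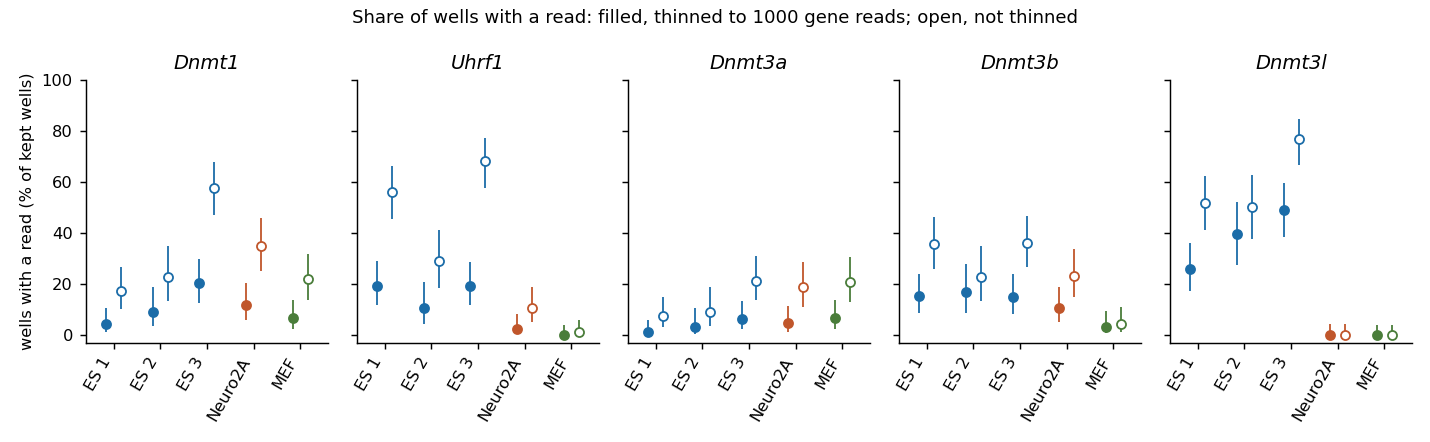
Share of kept wells with at least 1 read of each gene, in percent, by plate; filled points are wells thinned to 1000 gene reads, open points are not thinned, and bars are exact 95% binomial intervals. Dnmt3l is read in 25.8%, 39.4% and 48.9% of thinned ES wells and in 0% of the others, while the filled points of Dnmt1 overlap between cell types.

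Reads of a gene were concentrated in few wells. In ES plate 1 the 5 wells with most reads held 49.2% of the Uhrf1 reads, 57.9% of the Dnmt3l reads and 86.0% of the Dnmt3b reads. In ES plate 3 they held 35.1%, 25.5% and 52.2%. Dnmt3b was the most uneven of these 3 in both plates and was read in the fewest wells. In Neuro2A a single well held 85.1% of the Uhrf1 reads, 73.8% of the Dnmt3a reads and 53.3% of the Dnmt3b reads. A level in that plate is accordingly set by few cells.

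Pairs of the genes were seldom read in the same well at equal depth. Dnmt3b and Dnmt3l, an enzyme and its cofactor, were both read in 6, 5 and 7 thinned wells of ES plates 1, 2 and 3. These are 6 of the 14, 5 of the 11 and 7 of the 14 wells with Dnmt3b, beside 24 of 93, 26 of 66 and 46 of 94 of all wells with Dnmt3l. With counts divided by step (described below) before thinning, both were read in 1, 4 and 4 wells. Without thinning, 28 of 33, 10 of 15 and 33 of 34 Dnmt3b wells also had Dnmt3l, beside 48 of 93, 33 of 66 and 72 of 94 of all wells. Unthinned wells differ in depth. Dnmt1 and Uhrf1, which act together, were both read in 0, 0 and 3 thinned wells and in 14, 4 and 40 unthinned ones. The thinned wells are 0 of the 4, 0 of the 6 and 3 of the 19 with Dnmt1. Beside them, 18 of 93, 7 of 66 and 18 of 94 of all thinned wells had Uhrf1. Without thinning, 14 of 16, 4 of 15 and 40 of 54 Dnmt1 wells also had Uhrf1, beside 52 of 93, 19 of 66 and 64 of 94 of all wells. Wells with no read of any of the 5 genes were 49 of 93, 28 of 66 and 25 of 94 in the thinned ES plates, 63 of 86 in Neuro2A and 79 of 92 in MEF.

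The reads of the 5 genes were then split between maintenance and de novo. Dnmt1 and Uhrf1 together took 17.4%, 15.1% and 26.03% of the 5 genes' reads in the ES plates (19.5% ± 5.75, SD, n = 3), 28.3% in Neuro2A (95% exact interval 26.3% to 30.4%) and 24.7% in MEF (22.0% to 27.7%). MEF lay within the range of the ES plates, and Neuro2A lay above it by less than the spread between ES plates. With every well weighing the same, the share was 24.8%, 15.2% and 22.7% in the ES plates, with 46.8% in Neuro2A and 44.5% in MEF, both above every ES plate. Without barcodes ending in G, MEF stood at 32.7%, above the 14.1% to 24.7% of the ES plates. Within the de novo reads, Dnmt3a took 1.31%, 12.6% and 4.13% in the ES plates, with 40.4% in Neuro2A and 88.9% in MEF. Dnmt3l took 56.9%, 46.6% and 72.2% in the ES plates and 0% in the others. The make-up of the de novo reads did not overlap between ES cells and either other type. Within the maintenance reads, the ES plates had 820, 46 and 501 Dnmt1 reads beside 4187, 42 and 582 of Uhrf1, while Neuro2A had 433 beside 94 and MEF 219 beside 6. These shares compare plates for the same genes and are not ratios of molecules, since gene length and capture differ between genes.

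**Figure D3:**
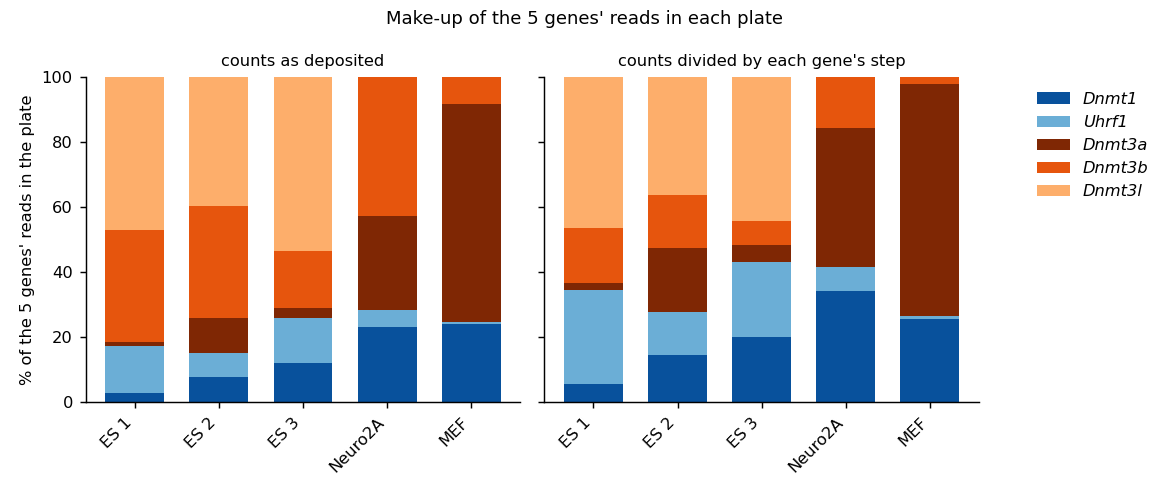
Make-up of the 5 genes' reads in each plate, in percent, with counts as deposited on the left and divided by each gene's step on the right; blue shades are maintenance genes and orange and brown shades de novo genes. Dnmt3l makes up 47.0%, 39.5% and 53.4% of the deposited counts in the ES plates, and Dnmt3a 66.9% in MEF.

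The counts of the de novo genes came in steps. Dnmt3b values in single wells were multiples of 4 in 105 of the 106 wells with a read, and Dnmt3l values were even in 157 of 157. Dnmt3a values were even in 15 of 16 wells of Neuro2A and 18 of 19 of MEF, but in 5 of 7, 3 of 7 and 11 of 20 of the ES plates. Dnmt1 and Uhrf1 showed no such steps, with 57 of 139 and 60 of 145 wells even. Among 5726 genes read in at least 50 wells, 7.56% had a step of at least 2 and 0.297% a step of 4, so both Dnmt3b and Dnmt3l belong to a minority. The origin of the steps is not given in the sources used here and was not tested. Undivided, such counts make counting intervals too narrow. The interval of the Dnmt3b ratio of Neuro2A to MEF came from counts divided by step, while that of Dnmt3a came from undivided counts. Steps also weigh on shares between genes and on shares of wells. With counts divided by step before thinning, Dnmt3b was read in 3 of 93, 9 of 64 and 6 of 94 ES wells, in 5 of 84 of Neuro2A and in 2 of 91 of MEF. ES plate 1 was then at 3.23% of wells, below the 5.95% of Neuro2A, while with counts as deposited it stood above, at 15.1% against 10.5%. With each gene's counts divided by its step, maintenance genes took 34.4%, 27.8% and 43.3% in the ES plates (35.2% ± 7.74, SD, n = 3), 41.7% in Neuro2A and 26.4% in MEF. MEF was then below every ES plate. Dnmt3a has a step of 1 over all plates, so its counts, mostly even in Neuro2A and MEF, were not divided. The shares of both plates, also those of Dnmt3a that follow, depend on this. Dividing these counts by 2 was not tried. The Dnmt3a share of de novo counts became 3.25%, 27.2% and 8.94% in the ES plates, with 73.0% in Neuro2A and 97.0% in MEF, in the same order of cell types.

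**Figure D4:**
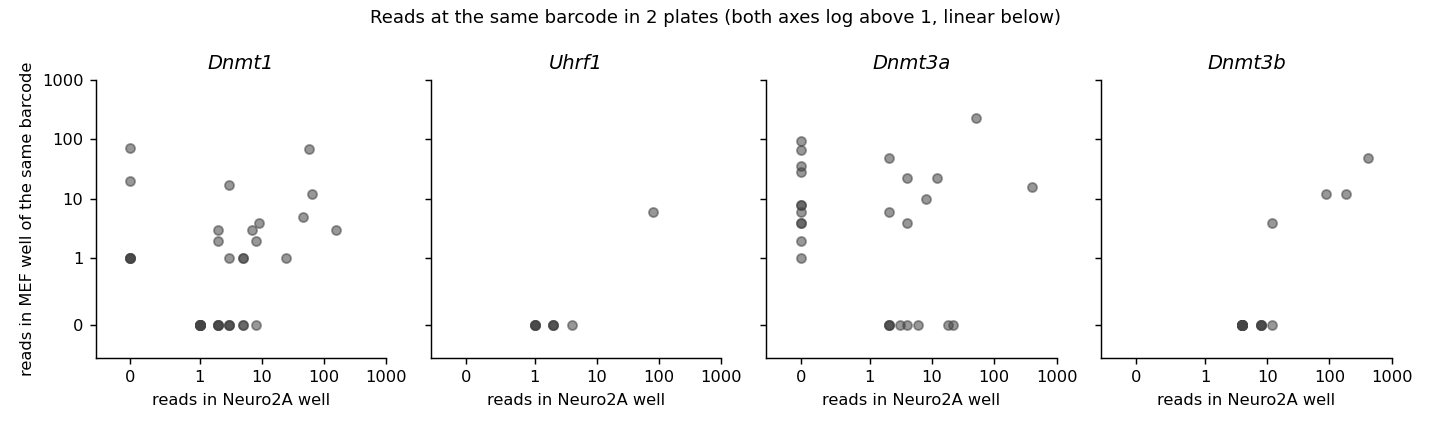
Reads of 4 genes in MEF wells (vertical) against Neuro2A wells (horizontal) of the same barcode, 1 point per barcode with a read in either plate, both axes logarithmic above 1 and linear below. All 4 MEF wells with Dnmt3b and the 1 with Uhrf1 lie at barcodes with many Neuro2A reads, while 11 MEF wells with Dnmt3a and 6 with Dnmt1 have none in Neuro2A.

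The genes whose levels over the 5 plates ran most alike were found by the root mean square difference of centred log2(CPM + 1) among 4374 genes with a mean of at least 50 CPM. For Uhrf1 they were Mcm3 (0.35), a subunit of the replicative helicase, Cdca3 (0.49), a cell division gene, and Kif11 (0.53), the mitotic spindle kinesin. Mcm3 stood at 230, 151 and 309 CPM in the ES plates, with 35.4 in Neuro2A and 4.55 in MEF, close to the course of Uhrf1. For Dnmt3l they were LOC666373 (0.30), a predicted gene, Zfp42 (0.30) and Sall4 (0.45). For Dnmt3b they were LOC100043715 (0.13), Ung (0.21), the uracil DNA glycosylase, and Tiparp (0.24). For Dnmt1 they were Thoc1 (0.11), Chmp4b (0.19) and Exosc7 (0.21), and for Dnmt3a Osbp (0.35), Psap (0.37) and Cdc27 (0.38). Likeness over 5 plates of which 3 are 1 cell type is a description.

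Genes that act at replication, where the maintenance system works, were set beside the 5. Of 16 S phase genes, 0 passed edgeR's adjusted test in either comparison. At an unadjusted edgeR p under 0.05, 9 were higher in ES cells than in MEF, beside 4.21% of all genes, and 6 higher than in Neuro2A, beside 8.38%. DESeq2 called 9 and 6, beside 4.67% and 11.4%. Their median fitted log2 difference was 4.33 against MEF and 1.36 against Neuro2A, beside -0.08 and 0.91 over all genes, and was the same to 2 decimals against MEF (4.33) and Neuro2A (1.36) with levels under 3 reads set to that floor. Cdt1, a licensing factor, stood at 195, 235 and 219 CPM in the ES plates, with 20.6 in Neuro2A and 3.54 in MEF. Ccne1, the gene of cyclin E1, stood at 127, 78.4 and 105 in the ES plates, with 0.32 in Neuro2A and 0 in MEF. Ccne2, the gene of cyclin E2, went the other way and was highest in Neuro2A at 427 CPM, with 0, 0 and 24.7 in the ES plates. Of the 14 S phase genes with reads in MEF, 6 had no more there than the share carried from Neuro2A, among them Mcm3, with 9 reads beside 10.4 carried, and Ccne2, with 41 beside 125. Cdt1 had 7 MEF reads beside 6.05. Whether the S phase levels bear on the Uhrf1 result was not tested. Of 9 partners of maintenance, DESeq2 called 2 higher in ES cells than in MEF, beside 4.67% of genes, and 0 against Neuro2A, and edgeR called 0, with an unadjusted p under 0.05 for the same 2 against MEF and for Csnk1d, lower in ES cells, against Neuro2A. These were Pcna, the replication clamp, at 625, 89.99 and 123 CPM against 14.6 in MEF, and Hells, a chromatin remodeler needed for methylation, at 491, 255 and 287 against 16.7. The MEF reads of Pcna and Hells, 29 and 33, are no more than the 31.7 and 58.6 expected to be carried from Neuro2A, so 0 were left after subtraction. Pcna counts in both lists.

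Among 11 measured genes of demethylation, the Tet genes went different ways. Tet1, a dioxygenase that oxidises methylated cytosine, listed under the older name Cxxc6, stood at 150, 87.1 and 239 CPM in the ES plates, with 0 in Neuro2A and 4.04 in MEF. Tet2, listed as E130014J05Rik, stood at 144, 63.9 and 61.3 in the ES plates, with 8.05 in Neuro2A and 73.7 in MEF. Tet3, listed as D230004J03Rik, was low in ES cells, at 0, 11.6 and 10.1 CPM, and higher in Neuro2A at 111 and MEF at 35.9, or 19.4 after subtracting carried reads. Tet1 and Tet3 thus did not overlap between ES cells and either other plate, in opposite directions. Of all genes tested, 23.3% lay above MEF and 28.8% above Neuro2A in every ES plate, as Tet1 did. As with Tet3, 39.8% lay below MEF and 28.1% below Neuro2A, so these positions are common ones. The Tet3 levels in the ES plates rest on 0, 4 and 22 reads. DESeq2 called Tet1 against both and Tet2 and the glycosylase gene Mbd4 against Neuro2A, that is 1 of 11 against MEF and 3 of 11 against Neuro2A, beside 4.67% and 11.4% of genes. edgeR called 0 of 11, with unadjusted p under 0.05 for 1 against MEF and 2 against Neuro2A. Mbd4 reads came from ES plate 1 alone, at 69.2 CPM.

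The remaining lists held few calls. Of 7 measured methyl-CpG readers, 0 passed either tool's adjusted test and 0 had an unadjusted edgeR p under 0.05, and 5 lay below MEF in every ES plate, beside 39.8% of all genes. Uhrf2, the relative of Uhrf1, was among them, at 1.94, 66.8 and 39.8 CPM in the ES plates, with 84.0 in Neuro2A and 175 in MEF, the reverse of the order of Uhrf1. Of 11 tested partners of de novo methylation and repression, DESeq2 called 1 against Neuro2A, beside 11.4% of genes, and 0 against MEF, and edgeR called 0, with an unadjusted p under 0.05 for the same gene. It was Zfp57, a zinc finger gene that guards imprints, at 111, 46.4 and 195 CPM in the ES plates, with 5.15 in Neuro2A and 62.6 in MEF. Trim28, the corepressor that Zfp57 recruits, stood at 620, 325 and 495 CPM in the ES plates, with 214 in Neuro2A and 260 in MEF, without a call. Of 8 tested genes of methyl donor supply, DESeq2 called 1 against Neuro2A, beside 11.4% of genes, and 0 against MEF. The gene was Mtr, the methionine synthase gene, which had 0 reads in Neuro2A. edgeR called 0 of the 8, with an unadjusted p under 0.05 for Mtr alone.

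**Figure D5:**
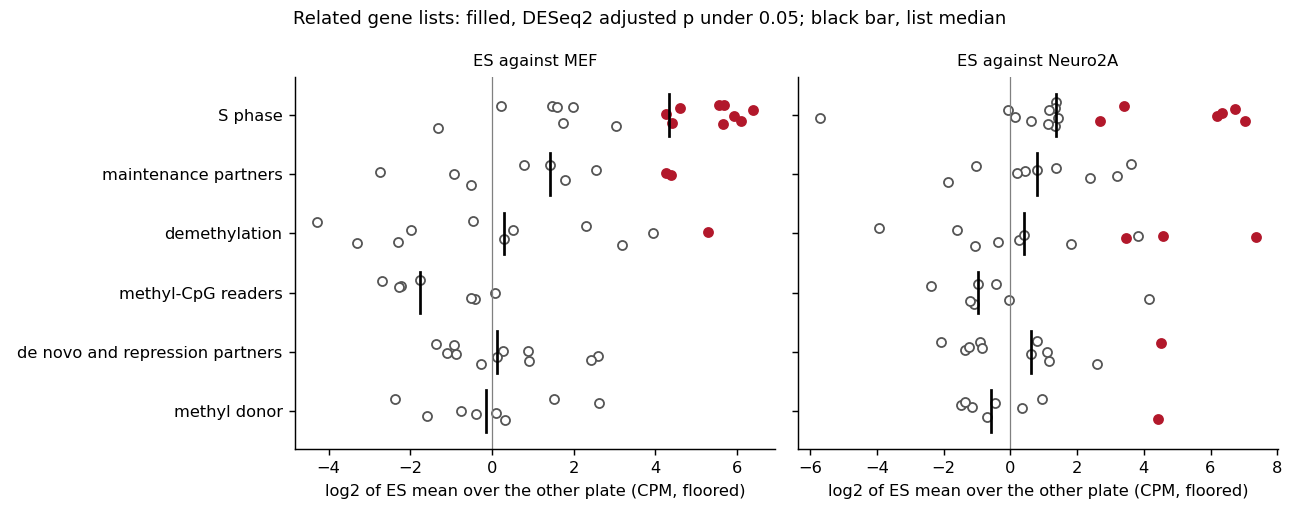
Genes of 6 related lists by the log2 of the ES mean over MEF (left) and over Neuro2A (right), with levels under 3 reads set to that floor; filled points have a DESeq2 adjusted p under 0.05 and black bars are list medians. The S phase list lies farthest to the right against MEF, with 9 of 16 genes filled, and the methyl-CpG readers have the lowest median.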

How the data were processed

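Single-cell cDNA was sequenced from 5 plates of 96 wells. The deposited files hold raw hit counts, per the readme deposited with the series, with 1 column per barcode. The submitters' processing notes name Bowtie. Its version is not given in the sources used here, nor are the authors' genome build and annotation, and molecular identifiers appear in none of the protocols. The counts were used as deposited, and repeats and mitochondrial rows were left out of library sizes. A well was kept from 1000 gene reads on, and reads of kept wells were summed per plate.

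Plate sums were fitted with edgeR 4.0.16 (quasi-likelihood test, TMM, filterByExpr, Benjamini-Hochberg at 0.05 over all 12271 genes), in 1 fit of group means over 5 plates, with DESeq2 1.42.0 as an alternative. edgeR standard errors come from the fit. R 4.3.3, scipy 1.17.1, pandas 2.3.3, numpy 2.4.6, matplotlib 3.10.9 and python 3.11.15 were used, and the fit was tested on simulated data. Folds against 0 reads used 3 reads per plate as the floor, or 3 steps (6 reads) for Dnmt3l. Thinning drew 1000 reads per well, with a separate fixed seed where reads were subtracted or counts divided by step. Carried-over reads were estimated from genes with at least 100 CPM in the source plate and 10 times each remaining plate, as the median share of source reads, and subtracted from plate sums. A gene's step is the largest whole number that divides at least 95% of its well values, and this alternative was added after the data were seen.

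Named genes are the 5 genes, members of the lists (S phase, maintenance partners, demethylation, methyl-CpG readers, de novo and repression partners, methyl donor, germ line) and the 3 genes nearest each in pattern. The genes and lists were chosen with earlier results of these data known. Marker lists were ES, fibroblast, neuroblastoma, primitive endoderm and macrophage, and 1 marker is not reported here. The 436 single cells stated in the design exceed the 431 wells kept here, which follow another limit.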

Additional observations from a re-analysis of the deposited data

How the results depend on the processing

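No paired analysis was possible because the labels give no replicate numbers and only ES cells had more than 1 plate. Of 13 alternatives for each comparison, 10 kept the count at 0 of 5 genes called. DESeq2's Wald test called 3 genes against MEF and 2 against Neuro2A, and edgeR without a filter on low counts called 1 in each, Dnmt3l, beside 0.0577% of genes higher in ES cells than in MEF and 0.488% than in Neuro2A. Leaving out 1 ES plate gave 0 to 3 genes called against MEF and 0 to 1 against Neuro2A, with the calls made without ES replicate 1, where 1.81% and 8.64% of genes were called higher in ES cells; these fits have fewer samples. The log2 difference of Dnmt1 between ES and Neuro2A reversed to -0.033 with wells of at least 5000 gene reads, and ran from -0.42 to 0.40 with 1 ES plate left out, and the cause was not tested. The other log2 differences kept their direction under all alternatives, 117 on the same side of the threshold and 11 now past it. Scaling by library size alone moved the median log2 difference of all genes against MEF from -0.08 to 0.67 and against Neuro2A from 0.91 to 1.13, and none of the 5 genes changed direction under it. The maintenance share was 20.6%, 21.7% and 16.3% as an ES mean without ES replicates 1, 2 and 3. For enzymes alone, Dnmt1 took 7.42%, 14.8% and 36.9% of the reads of Dnmt1, Dnmt3a and Dnmt3b in the ES plates. Neuro2A at 24.5% and MEF at 24.2% lay inside that range. With every well weighing the same, the maintenance share was 20.9% as an ES mean (15.2% to 24.8%), with 46.8% in Neuro2A and 44.5% in MEF. Without barcodes ending in G it was 18.5% as an ES mean, with 24.7% in Neuro2A and 32.7% in MEF, and Uhrf1 in Neuro2A fell to 2 reads. With counts divided by step, and Dnmt3a left undivided, it was 35.2% as an ES mean and 41.7% in Neuro2A. The causes were not tested. Depth limits ES plate 2 most, where 3 reads are 8.71 CPM.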

Other observations

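Germ line genes that DNA methylation is known to silence in somatic cells were read at low levels and in ES plates alone. Of 6 such genes, 5 were in the files, and all 5 had 0 reads in Neuro2A and MEF. Sycp3, which encodes a protein of the meiotic chromosome axis, stood at 93.5, 29.0 and 0.46 CPM in ES plates 1, 2 and 3. Dazl, an RNA-binding protein gene of germ cells, stood at 0, 0 and 40.2 CPM, and Ddx4, a germ cell helicase gene, at 0, 14.5 and 0. No plate held more than 93.5 CPM of the list in sum. The 2 genes that entered the fit, Dazl and Sycp3, had 0 adjusted edgeR calls, 0 unadjusted p under 0.05 and 0 DESeq2 calls.

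Of the markers of other cell types, the primitive endoderm list summed to at most 46.6 CPM in an ES plate, 26.1 in Neuro2A and 616 in MEF, and 3 of its 6 genes were in the files. The macrophage list had 1 gene in the files, Cd68, which was read in ES plate 3 at 16.5 CPM and at 0 elsewhere.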
